A study of Mus musculus with 7 samples.

Results

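The 8 sarcomeric myosin heavy chain genes Myh1, Myh2, Myh3, Myh4, Myh6, Myh7, Myh7b and Myh8 were read by 12 of the 39429 probes on the array, each a 60-base oligonucleotide. Probes were taken by the gene name in the array annotation, or by the current symbol of their RefSeq accession, whatever their signal. Both names were the same for 11 of the 12 probes, and the remaining Myh8 probe carried that name only in the array annotation. Myh3 and Myh6 had 2 probes each, Myh8 had 3, and the other 5 genes had 1.

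The RNA came from the quadriceps of C57BL/6 mice at 3 months of age, 90 days in the design text, from 4 WT mice and 3 AR113Q mice. AR113Q mice carry a humanized knock-in allele with an expanded CAG repeat and model spinobulbar muscular atrophy (SBMA). At this age they had not yet developed motor dysfunction. The labels and figure legends call the controls WT, whereas the running text of the study describes a humanized control line of short repeat length, so whether the controls also carry a knock-in allele is not settled here. The design text adds NCD to the name of the AR113Q group and not to that of the controls, without saying what it stands for, so a difference other than genotype cannot be told apart from it. The study states that its mice were male, while the labels of these arrays give no sex, and each mouse was hybridised to 1 single-dye Agilent array.

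A myosin heavy chain is the motor subunit of the thick filament, and its isoform sets how fast a fiber contracts. In mouse limb muscle, Myh7 encodes the slow isoform of type I fibers, Myh2 the fast isoform of type IIA fibers, Myh1 that of type IIX fibers and Myh4 that of type IIB fibers, the fastest. Myh3 and Myh8 encode the embryonic and perinatal isoforms of developing and regenerating muscle, Myh6 the alpha isoform of the heart, and Myh7b an evolutionarily old isoform found mainly in specialised fibers. The fast and developmental genes form 1 cluster, and the cardiac pair another.

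On the mm9 build of the mouse genome, the probes of the fast and developmental genes lay on the plus strand of chromosome 11 in the order Myh3, Myh2, Myh1, Myh4 and Myh8, over 206.8 kb. The Myh6 and Myh7 probes lay on the minus strand of chromosome 14, within 28.8 kb of each other, and the Myh7b probe at chr2:155459122-155459181 on the plus strand. No mm9 gene model was used here, so exon and untranslated positions are not given. The 2 brighter Myh8 probes are shown because they gave different results for the same gene. A_55_P2120161 lay at chr11:67093475-67093534, which is 28.4 kb upstream, in the direction of transcription, of A_51_P143296 at chr11:67121925-67121984. Both had at least 1 reading frame without a stop codon.
Myh8 A_55_P2120161: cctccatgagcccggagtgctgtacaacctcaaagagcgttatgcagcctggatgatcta
Myh8 A_51_P143296: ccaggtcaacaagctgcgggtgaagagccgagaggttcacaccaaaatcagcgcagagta

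The myosin genes are close paralogs, and each probe was compared with every other gene's probe on the array. The longest run of bases that a member probe shared with a probe of another gene was 12 to 15 bases, except for the Myh3 probe A_55_P2083406 (chr11:66915107-66915166). It shared 24 bases with the Myh15 probe A_55_P2090065 (chr16:49196943-49197002), given in capitals.
Myh3 A_55_P2083406: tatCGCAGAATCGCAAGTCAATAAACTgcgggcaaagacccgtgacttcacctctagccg
Myh15 A_55_P2090065: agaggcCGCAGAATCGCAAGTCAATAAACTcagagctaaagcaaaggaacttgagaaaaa
The bright Myh8 probe A_51_P143296 matched 28 of 43 overlapping bases (65.1%) of the Myh13 probe in its best ungapped alignment. Probes were compared only with probes, and cross-hybridisation to the whole transcripts of other myosin genes was not tested.

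The probes of the 4 adult limb isoforms, whose genes define the fiber types, are shown by their last 30 bases.
Myh7 A_55_P2093232: caagggtgcccgtgaagccctcagacctgg
Myh2 A_55_P2106068: aaaaagcccaagttcctttgcaagcaatca
Myh1 A_55_P2147280: ctgttttgtactcataactttgggagataa
Myh4 A_51_P338072: gacaggagaaatcacaaaatgtgacgttct
They lay at chr14:55589581-55589640 on the minus strand for Myh7, and on the plus strand at chr11:67010960-67011019 for Myh2, chr11:67038002-67038061 for Myh1 and chr11:67073834-67073893 for Myh4.

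Values are log2 background-subtracted intensities after quantile normalization over the 7 arrays, and a log2 fold change is the AR113Q mean minus the WT mean. Levels of different probes cannot be set against each other. A probe was tested if 3 or more arrays measured it well above background, which left 20991 probes for the limma fit. It was called changed if its adjusted p was 0.05 or lower and its mean moved by 1 or more on the log2 scale. Each array had 47.64 to 55.83% of its probes well above background and no saturated spot. Slide 2 was the single slide of the 5 with both genotypes, WT mouse 2 and AR113Q mouse 1.

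The tissue label was checked against marker genes. All 7 markers of skeletal muscle fibers (Acta1, Ckm, Des, Mb, Ryr1, Tcap and Ttn) were well above background on all 7 arrays, and none was called. By the adjusted p alone 3 of them passed, all lower in AR113Q, namely Ckm, Ryr1 and Ttn (log2 fold changes −0.80, −0.74 and −0.66). Of all tested probes, 43.8% passed it. The median log2 fold change of the 7 markers was −0.60, and that of all genes −0.01. Of 8 heart markers, 6 (Gata4, Myl7, Nkx2-5, Nppa, Nppb and Ryr2) were too dim to be tested, Tnni3 was well above background on 3 arrays, and neither it nor Myl4 was called.

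Of the 12 myosin probes, 10 passed the filter on dim probes and 1 was called, the upstream Myh8 probe, which was lower in AR113Q muscle. Over all tested probes 24.8% were called, 12.6% as lower and 12.2% as higher. By the adjusted p alone, 1 of the 10 passed, against 43.8% of all tested probes. The genotypes did not overlap for 1 of the 10, the same probe, against 49.6% of all tested probes. By the brightest probe of each gene, 0 of the 8 myosin genes were called by limma, against 24.3% of 16577 genes, and 0 of the 8 had an unadjusted p under 0.05, against 8532 of all genes. The median log2 fold change of the 8 genes was 0.28, and that of all genes −0.01. The adult limb isoforms Myh7, Myh2, Myh1 and Myh4 therefore gave no call in either direction, but their intervals differed widely in length, as the plot of genotype differences shows.

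**Figure D1:**
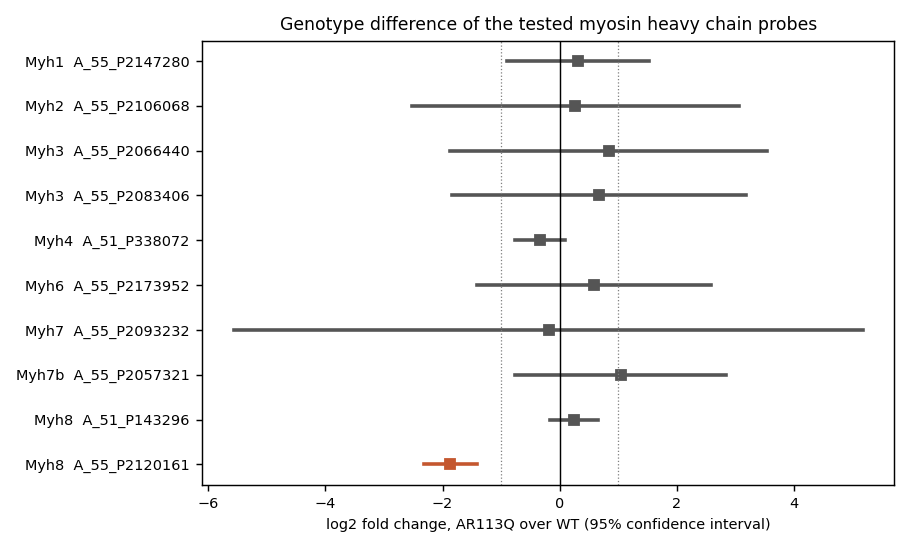
Log2 fold change of AR113Q over WT (x axis) for each of the 10 tested myosin heavy chain probes (rows), with its 95% confidence interval from limma as a bar. Dotted lines mark the fold change threshold at 1 and −1, and the called Myh8 probe is in orange. The interval was longest for Myh7, from −5.56 to 5.17, and that of the called Myh8 probe ran from −2.31 to −1.42.

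Myh7, the slow isoform, varied more among mice of the same genotype than nearly any other probe. Its log2 intensity was 4.95, 12.56, 11.89 and 6.66 in WT mice 1 to 4, and 6.66, 6.22 and 13.59 in AR113Q mice 1 to 3. WT mice 2 and 3 and AR113Q mouse 3 were high, the other 4 mice were low, and the genotypes overlapped. In the intensities as scanned, before normalization, the same spot ran from 23.64 in WT mouse 1 to 15070 in AR113Q mouse 3. The range over the 7 arrays was 8.64 on the log2 scale, or 398-fold, and ranked 5 among the 20991 tested probes. Its SD among WT mice, 3.78, was the largest of all tested probes, where the median SD was 0.21, and its SD among AR113Q mice, 4.13, ranked 3, with a median of 0.32. The mean difference between genotypes was small beside this spread (log2 fold change −0.19, SE 2.34, limma adjusted p = 0.955), and the interval from −5.56 to 5.17 leaves large changes either way undetectable with 4 and 3 mice. The sign turned when any of WT mouse 2, WT mouse 3, AR113Q mouse 1 or AR113Q mouse 2 was left out (log2 fold change 0.99, 0.76, 0.89 and 1.11).

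A probe without a gene name in the array annotation, A_55_P2093231, gave almost the same profile. It lay on the same strand at chr14:55589521-55589580, immediately next to the Myh7 probe on its downstream side. Its log2 intensity was 4.82, 12.19, 11.56 and 6.48 in WT mice 1 to 4, and 6.33, 6.03 and 13.12 in AR113Q mice 1 to 3. After both probes were centred on their own means, they differed by a root mean square of 0.11 over the 7 arrays. The same mice were high and low on this separate spot.

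Myh2, the type IIA isoform, was high in the same 3 mice. The log2 values were 11.68, 14.75, 14.82 and 11.27 in WT mice 1 to 4, and 12.10, 12.14 and 15.92 in AR113Q mice 1 to 3. The 3 high mice lay at least 2.61 above the 4 others, and the genotypes overlapped. The range was 4.66, or 25.2-fold, and the difference between genotypes lay within it (log2 fold change 0.26, SE 1.22, 95% interval −2.53 to 3.05, limma adjusted p = 0.879).

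Myh1, the type IIX isoform, had a narrower range with the same 3 mice on top. WT mice 1 to 4 had log2 values of 13.94, 15.20, 14.80 and 14.32, and AR113Q mice 1 to 3 of 14.22, 14.15 and 16.24. The gap between the 3 higher and the 4 lower mice was 0.49, where it was 5.22 for Myh7, and AR113Q mouse 3 stood highest. The genotypes did not differ beyond the spread (log2 fold change 0.31, SE 0.53, 95% interval −0.91 to 1.52, limma adjusted p = 0.669), and without AR113Q mouse 3 the sign turned (−0.38).

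Myh4, the type IIB isoform and the characteristic myosin of fast quadriceps, varied over 0.84 on the log2 scale. Its log2 intensity was 16.11, 16.35, 15.86 and 15.90 in WT mice 1 to 4, and 15.50, 15.74 and 15.91 in AR113Q mice 1 to 3. The AR113Q mice were at the lower end, but the highest of them lay above 2 WT mice. The mean difference was below the fold change threshold (log2 fold change −0.34, SE 0.18, 95% interval −0.76 to 0.08, limma adjusted p = 0.17). The interval lay inside a change of 1 on the log2 scale in either direction. With each array divided by its 75th percentile instead, the adjusted p was 0.0449 at a log2 fold change of −0.58, still below the fold change threshold.

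**Figure D2:**
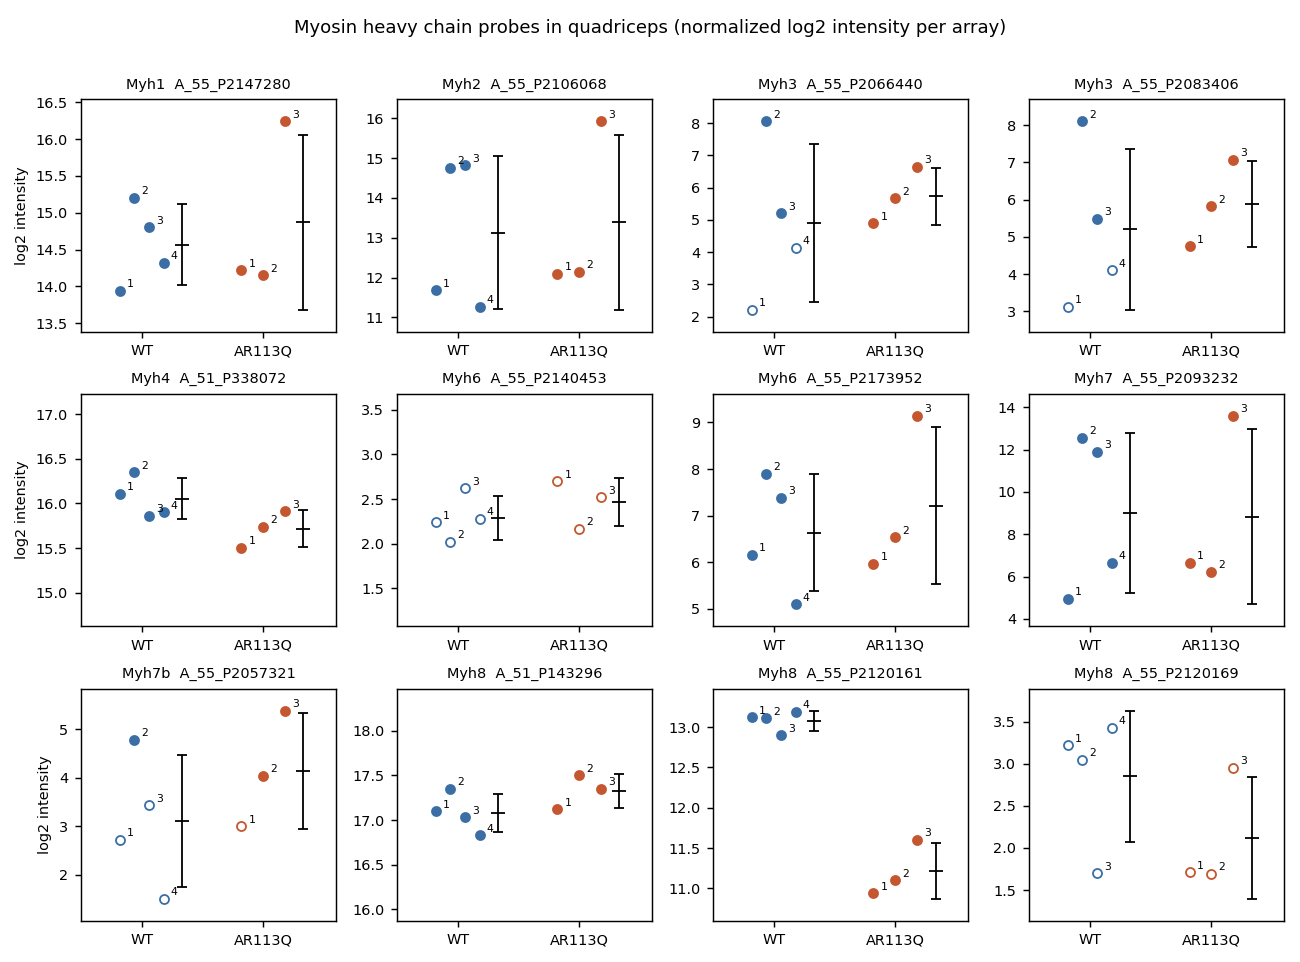
Normalized log2 intensity (y axis, a separate scale for each probe) of the 12 myosin heavy chain probes in 4 WT and 3 AR113Q mice, 1 point per array with the number of the mouse beside it. Filled points were well above background, open points were not, and black bars show the mean ± SD. In the Myh7 panel WT mice 2 and 3 and AR113Q mouse 3 lie between 11.89 and 13.59 and the other mice between 4.95 and 6.66, and only in the panel of Myh8 probe A_55_P2120161 do all AR113Q points lie below all WT points.

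To compare the isoforms within the same RNA sample, the log2 signals of each pair of adult limb isoforms were subtracted within an array. Such a difference shows unequal change of 2 probes, not their relative level. For Myh7 minus Myh4 it was −11.16, −3.78, −3.98 and −9.23 in WT mice 1 to 4, and −8.85, −9.52 and −2.32 in AR113Q mice 1 to 3, so the difference was closest to 0 in the same 3 mice. For Myh2 minus Myh4 it was −4.43, −1.59, −1.04 and −4.63 in WT mice, and −3.40, −3.60 and 0.01 in AR113Q mice. The genotype means of the 6 pairs differed by −0.50 (Myh7 minus Myh1) to 0.64 (Myh1 minus Myh4), and the latter came to 0.07 without AR113Q mouse 3. In a two-sided exact permutation test over the 7 mice, the p-values of the 6 pairs ran from 0.457 to 0.971 and every Benjamini-Hochberg adjusted p was 0.971, where 4 against 3 mice allow no p below 0.0286.

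Myh6, Myh3 and Myh7b, which are not the main myosins of adult limb muscle, were dim or near background. The Myh6 probe A_55_P2173952 had log2 intensities of 6.16, 7.90, 7.38 and 5.10 in WT mice 1 to 4 and of 5.97, 6.54 and 9.14 in AR113Q mice 1 to 3, again highest in WT mice 2 and 3 and AR113Q mouse 3. The other Myh6 probe, A_55_P2140453, stayed at background in all 7 mice, with values of 2.02 to 2.70. The Myh6 difference between genotypes lay within the spread (log2 fold change 0.58, SE 0.87, limma adjusted p = 0.618).

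Both Myh3 probes were well above background on the same 5 arrays, those of WT mice 2 and 3 and of all 3 AR113Q mice. The probe A_55_P2066440 had log2 intensities of 2.21, 8.06, 5.21 and 4.14 in WT mice 1 to 4 and of 4.89, 5.67 and 6.64 in AR113Q mice 1 to 3. The other, A_55_P2083406, had 3.13, 8.10, 5.48 and 4.10 in WT mice and 4.75, 5.82 and 7.06 in AR113Q mice. Both placed the 7 mice in the same order, with WT mouse 2 highest and WT mouse 1 lowest. Neither difference was called (log2 fold changes 0.83 and 0.67, SE 1.18 and 1.09, limma adjusted p = 0.597 and 0.645), and without WT mouse 1 both came to about 0 (−0.07 and −0.02), as they did with normexp background correction (0.12 and 0.08). The Myh15 probe that shares 24 bases with the second was too dim to be tested.

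Myh7b was well above background on 3 arrays, those of WT mouse 2 and AR113Q mice 2 and 3. The log2 values were 2.72, 4.78, 3.43 and 1.50 in WT mice 1 to 4, and 3.00, 4.04 and 5.39 in AR113Q mice 1 to 3. The genotypes overlapped, and the difference was not called (log2 fold change 1.04, SE 0.79, 95% interval −0.77 to 2.84, limma adjusted p = 0.315). With normexp background correction the log2 fold change was 0.18.

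Myh8, the perinatal isoform, was the only member gene with a called probe. The upstream probe A_55_P2120161 had log2 intensities of 13.12, 13.11, 12.90 and 13.19 in WT mice 1 to 4, and of 10.94, 11.10 and 11.60 in AR113Q mice 1 to 3. All 3 AR113Q mice lay below all 4 WT mice, as did the AR113Q mice for 24.2% of tested probes. The signal fell by 1.87 on the log2 scale, to 3.65-fold lower (SE 0.19, 95% interval −2.31 to −1.42, limma adjusted p = 0.000326). Within slide 2, AR113Q mouse 1 minus WT mouse 2 was −2.17. With slide as a fixed effect, which rests on that 1 pair of mice, the adjusted p was 0.0532, and 0 of all 20991 probes were called.

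The downstream Myh8 probe A_51_P143296 did not follow. Its log2 intensity was 17.10, 17.35, 17.03 and 16.83 in WT mice 1 to 4, and 17.12, 17.50 and 17.35 in AR113Q mice 1 to 3, and the genotypes overlapped. The log2 fold change was 0.24 (SE 0.18, 95% interval −0.16 to 0.65, limma adjusted p = 0.296), and −0.35 with each array divided by its 75th percentile, so no direction is given for this probe. Within an array, the upstream probe minus the downstream probe was −3.98, −4.24, −4.13 and −3.64 in WT mice 1 to 4, and −6.18, −6.40 and −5.75 in AR113Q mice 1 to 3. In the intensities as scanned the same log2 difference was −4.47 to −3.88 in WT and −6.01 to −5.51 in AR113Q mice, so on both scales the probes were further apart in every AR113Q mouse than in any WT mouse. This contrast was noticed after its values were seen and carries no test. The downstream probe was among the brightest on the array, and of the 154 tested probes with a mean log2 intensity of at least 16, 4.55% were called, against 13.8% of the 2232 probes from 12 to 16, the class of the upstream probe. The third Myh8 probe, A_55_P2120169, stayed at background in all 7 mice, with values of 1.69 to 3.43. Which of the 2 bright probes follows Myh8 mRNA was not tested.

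**Figure D3:**
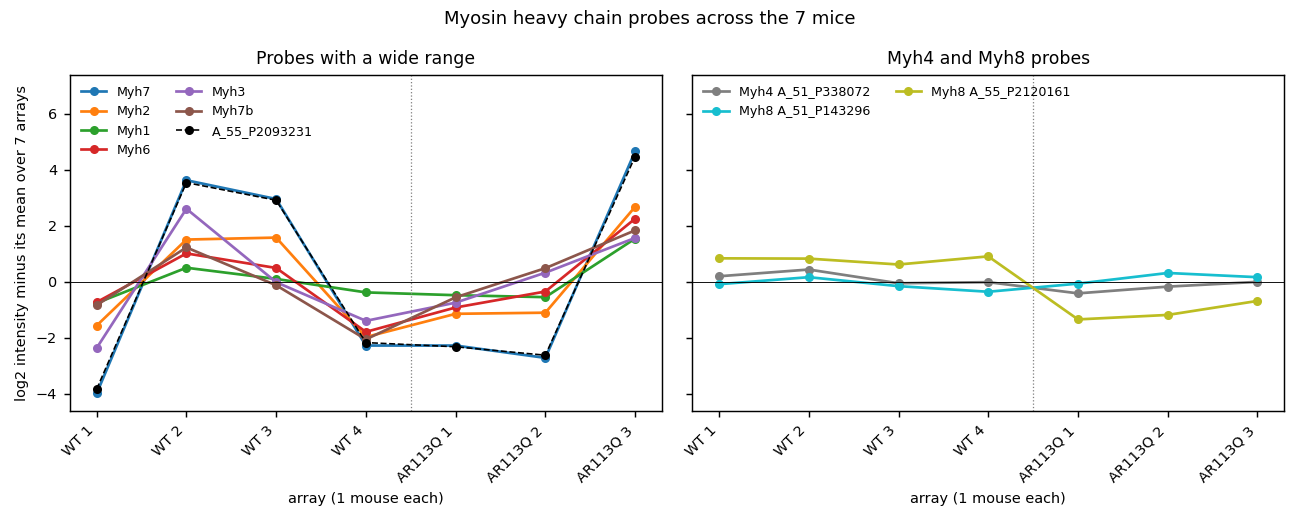
Log2 intensity of the myosin heavy chain probes minus the mean of each probe over the 7 arrays (y axis) for each mouse (x axis), 1 line per probe, with the dotted vertical line between the genotypes. On the left, Myh7 and its unnamed neighbour probe A_55_P2093231 run together, and Myh7, Myh2, Myh1 and Myh6 are highest in WT mice 2 and 3 and AR113Q mouse 3. On the right, Myh4 and the downstream Myh8 probe stay nearly level over ranges of 0.84 and 0.67, and the upstream Myh8 probe drops in the 3 AR113Q mice.

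Within slide 2, the log2 difference of AR113Q mouse 1 from WT mouse 2 was −5.90 for Myh7, −2.65 for Myh2, −0.98 for Myh1, −0.84 for Myh4 and −0.23 for the downstream Myh8 probe. It was −1.93 for the tested Myh6 probe, −3.17 and −3.35 for the Myh3 probes and −1.78 for Myh7b, which was not well above background in AR113Q mouse 1. With the upstream Myh8 probe, the 9 probes that were well above background in both mice were lower in the AR113Q mouse of this pair, whose WT mouse was one of the mice with high Myh7.

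Of the 10 tested myosin probes, 4 (Myh7, Myh2, Myh1 and the Myh6 probe) had their 3 highest values in WT mice 2 and 3 and AR113Q mouse 3, as had 481 (2.29%) of all tested probes. These 3 mice were picked out by the myosin values, so the counts are a description. No 2 of them shared a slide, since WT mouse 2 was on slide 2, WT mouse 3 on slide 4 and AR113Q mouse 3 on slide 5. WT mouse 4, on slide 4 with WT mouse 3, and AR113Q mouse 1, on slide 2 with WT mouse 2, were low in Myh7.

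Other genes of slow fibers were high in the same mice. The list of slow fiber companions held 10 genes for slow light chains, troponins, tropomyosin, calcium handling and the Z-disc, and 6 of them were highest in the same 3 mice. Their summed normalized intensity was 6920, 32200, 36200 and 7350 in WT mice 1 to 4, and 7570, 8200 and 84500 in AR113Q mice 1 to 3. Myl3, the slow and ventricular essential light chain, had log2 intensities of 8.09, 13.93, 14.20 and 9.98 in WT mice and 9.71, 7.18 and 15.32 in AR113Q mice. In bulk muscle, fewer slow fibers and less of these RNAs in each fiber cannot be told apart.

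**Figure D4:**
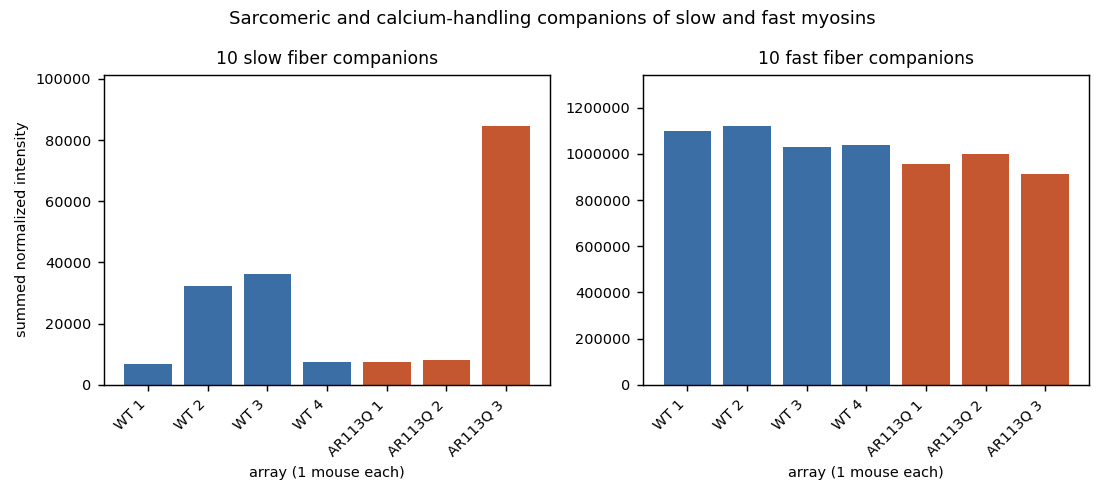
Summed normalized intensity (y axis, from 0) of 10 slow fiber companion genes (left) and 10 fast fiber companion genes (right) for each mouse (x axis), WT in blue and AR113Q in orange. The slow sum was 32200 to 84500 in WT mice 2 and 3 and AR113Q mouse 3 and at most 8200 in the other 4 mice. The fast sum was 1030000 to 1120000 in WT and 913000 to 1000000 in AR113Q mice.

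Of the 10 slow fiber companions, 1 was called higher, 0 lower, and the median log2 fold change was 0.27. The called gene was Atp2a2, the slow and cardiac calcium pump of the sarcoplasmic reticulum, which rose from 8.22 to 9.64 (log2 fold change 1.42, SE 0.42, limma adjusted p = 0.0246). Of the 10 fast fiber companions, 0 were called higher and 2 lower, with a median of −0.41, and 0 were highest in those 3 mice. The summed intensity of the fast companions was lower in every AR113Q mouse (913000 to 1000000) than in any WT mouse (1030000 to 1120000), which was not tested. Among all tested probes, 24.2% had every AR113Q value below every WT value. The genes with the brightest probes in the sum, Tnni2, Pvalb, Tnnt3 and Tnnc2, had log2 fold changes of 0.27, −0.13, 0.00 and 0.00. Those of the other list members were all negative. The larger of the 2 called decreases was that of Casq1, the calcium store protein of fast fibers. Its log2 intensity was 14.11, 13.75, 13.95 and 13.95 in WT mice and 9.94, 10.97 and 11.76 in AR113Q mice (log2 fold change −3.05, SE 0.37, limma adjusted p = 0.000607). The fast regulatory light chain Mylpf fell as well (log2 fold change −1.37, SE 0.26, limma adjusted p = 0.004), though its dimmer probe did not pass the fold change threshold (−0.57). Of all genes, 13.1% were called lower and 11.2% higher, and the 2 lists were not compared by a test.

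Of 7 tested genes that fold and turn over myosin, 1 was called higher, 2 lower and 4 were not called, and the median log2 fold change was −0.44. The share called among all genes was 24.3%, and 3 calls in so short a list were not tested against it. Trim63, the muscle ubiquitin ligase MuRF1 that acts on thick filament proteins, rose from 14.09 ± 0.50 (SD, n = 4) to 16.02 ± 0.15 (SD, n = 3), by 1.93 on the log2 scale (SE 0.27, limma adjusted p = 0.00105). Unc45b, the chaperone that folds the myosin motor domain in striated muscle, fell by 1.57 (SE 0.25, limma adjusted p = 0.00196). The other decrease was that of Smyd1, a methyltransferase of myofibril assembly (log2 fold change −1.02).

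The partners of myosin in the thick filament and the M-band gave 0 genes called higher and 2 called lower of 9 tested, with a median of −0.42, a share near the 24.3% called over all genes. Mybph, a myosin-binding protein H that associates with the thick filament, had log2 intensities of 13.21, 12.58, 13.87 and 14.32 in WT mice 1 to 4 and of 8.30, 10.81 and 10.55 in AR113Q mice 1 to 3. It fell by 3.61 on the log2 scale (SE 0.64, limma adjusted p = 0.00285). The other decrease was that of Obsl1 (log2 fold change −1.03), whose dimmer probe was not called (0.13). Titin (Ttn) had a log2 fold change of −0.66 (SE 0.20, limma adjusted p = 0.0264), short of the fold change threshold, and Mybpc3 and Mybphl were too dim to be tested.

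Of 26 tested transcription regulators of fiber type, 1 was called higher and 5 lower, with a median of −0.30, a share near the 24.3% called over all genes, so the genes below are given for themselves and not for the list. The largest decrease was that of Myod1, the myogenic factor that is richer in fast than in slow muscle, whose log2 intensity was 8.95, 7.84, 8.74 and 8.79 in WT mice 1 to 4 and 4.79, 4.43 and 4.57 in AR113Q mice 1 to 3 (log2 fold change −3.98, SE 0.27, limma adjusted p = 8.6e-05). Among the other decreases were Maf, a large Maf factor of the type IIB program (log2 fold change −2.37), Nfatc2 (−1.26) and Mef2c (−1.11). The dimmer Nfatc2 probe was not called (−0.78). The increase was that of Ppard, a nuclear receptor that favours oxidative fibers (log2 fold change 1.10, SE 0.19, limma adjusted p = 0.00281). Six4, Tbx15, Sox6 and Ppargc1a, all regulators of fast or slow programs, were not called, and their log2 fold changes were −0.11, −0.57, −0.70 and −0.37.

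Outside the sarcomeric set, 5 of 6 other myosin heavy chain genes could be tested, and 1 was called higher and 1 lower, where 24.3% of all genes were called in either direction. Myh14, a nonmuscle myosin, rose from 11.13 ± 0.31 (SD, n = 4) to 12.55 ± 0.36 (SD, n = 3), by 1.42 (SE 0.24, limma adjusted p = 0.00221). Its dimmer probe was not called (log2 fold change 1.15, SE 0.46, limma adjusted p = 0.0713). Myh10, another nonmuscle myosin, fell by 1.73 (SE 0.31, limma adjusted p = 0.00293). Myh11 of smooth muscle and Myh13 of extraocular muscle were not called (log2 fold changes 0.25 and −0.17).

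Myh3 and Myh8 mark developing and regenerating fibers, and genes of that state were listed with them. Of 6 tested, 1 was called higher and 1 lower, with a median of −0.06 and against 24.3% called among all genes, so nothing is read from the list as a group. Chrng, Mymk and Mymx, the fetal receptor subunit and the fusion proteins of myoblasts, were too dim to be tested. Chrna1, the alpha subunit of the muscle acetylcholine receptor, rose from 9.85 to 11.62 (log2 fold change 1.77, SE 0.22, limma adjusted p = 0.000598). Actc1, the cardiac actin of developing muscle, fell by 2.20 (SE 0.69, limma adjusted p = 0.032).

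Some markers of other cells in the muscle moved with genotype beside the myosin results. Over all genes 24.3% were called, and the endothelial, smooth muscle and erythrocyte lists lay below that share. Of the fibroblast list, 4 of 6 genes were called lower and 0 higher, namely Col3a1 (log2 fold change −4.62), Col1a1, Lum and Col1a2. Dcn and Pdgfra were not called (log2 fold changes 0.41 and −0.27). The summed intensity of the fibroblast list was 104000 to 126000 in WT and 75000 to 106000 in AR113Q mice. Of the adipocyte list, 4 of 6 were lower and 0 higher, namely Adipoq (log2 fold change −2.71), Retn, Cfd and Plin1, with sums of 59400 to 100000 in WT and 37700 to 45600 in AR113Q mice. Of the macrophage list, 3 of 6 were lower, namely Adgre1 (log2 fold change −1.94), Lyz2 and Csf1r, and 1 was higher, Cd163 (log2 fold change 1.18), with sums of 6280 to 11400 and 4170 to 5680. The dimmer Csf1r probes were not called (log2 fold changes −0.91 and −0.74). Of the endothelial list, 1 of 6 genes was lower (Vwf) and 0 were higher, with sums of 5560 to 6820 and 3490 to 5260. Pecam1 passed the adjusted p but not the fold change threshold (log2 fold change 0.60, limma adjusted p = 0.0189). The log2 fold changes of the other endothelial genes, all not called, lay between −0.42 and 0.02. Of the smooth muscle list, 1 of 6 was lower (Smtn) and 0 were higher, and 0 of 4 tested erythrocyte genes were called, with sums that overlapped between the genotypes in both lists. In none of these 6 lists were WT mice 2 and 3 and AR113Q mouse 3 the 3 highest. The part of these cells in the Myh8 result was not tested.

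For each member, the 3 genes with the closest profile were sought among 13718 genes measured above background in all 7 mice, by the smallest root mean square difference after centring, a description over 7 arrays. For Myh7 they were the unnamed neighbour probe above (0.11), Myl3 (0.87) and Tnnt1, the slow troponin T (0.98). For Myh2 they were Myoz2, a Z-disc protein of slow fibers (0.52), the unnamed probe A_55_P2086835 (0.52) and Tnnc1, the slow and cardiac troponin C (0.55). For Myh1 they were Mb, which encodes myoglobin (0.25), Tm6sf1 (0.26) and Acsl1 (0.29). For Myh6 they were the same unnamed probe A_55_P2086835 (0.37), the lactate dehydrogenase subunit Ldhb (0.39) and Dgat2 of triglyceride synthesis (0.40). For Myh7b the closest was the Myh6 probe (0.47), then Tnnt2 (0.65) and Fzd4 (0.66). Myh3 had only distant matches, Fam240a (0.78), Cep85l (0.91) and Esrrb (0.92). For the nearly level downstream Myh8 probe they were Crlf2 (0.06), Fcho1 (0.07) and Nr2c1 (0.08), and for Myh4 they were 3 probes without a gene symbol, within 0.07.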

How the data were processed

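Total RNA of the quadriceps of 7 mice was labelled with Cy3 and hybridised to Agilent Mouse GE 4x44K V2 arrays. The authors read the scans with Agilent Feature Extraction, version 10.7.3.1, and the deposited scanner files hold a background-subtracted intensity per spot, not normalized between arrays, with probe positions on mm9. The authors also deposited a table of normalized log2 values for 18592 probes, used here only as an alternative. Its values followed the mean spot intensity without background subtraction (correlation 0.991 to 0.999 per array), and its column medians were 8.92 to 8.93.

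Here, control spots and spots with an outlier flag were left out, log2 intensities were quantile normalized, and spots of a probe were averaged. Probes that 3 or more arrays measured well above background (20991 of 39429) were tested for AR113Q against WT with limma 3.58.1 in R 4.3.3. Benjamini-Hochberg adjustment ran over all tested probes, after the script was tested on simulated data. The methods of the study also name quantile normalization and limma, in another version, and describe no filter on dim probes for the arrays. Without replicate cultures or repeat arrays, p-values measure the spread between these mice. Gene lists used the brightest tested probe of each gene. Symbols of 28330 probes came through their RefSeq accession (GRCm38.p6 table), and the others kept the file's name.

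Members and gene lists were chosen with earlier results of these data known. All member probes are reported, and some results for other genes are not reported here. Of each other list, the rule was to name the called genes with the largest increase and decrease, and, for each member, the 3 genes with the nearest profile. Other named genes were chosen after their values were seen. WT and AR113Q arrays shared replicate numbers, but same-numbered arrays deviated together only weakly (correlations 0.0407, −0.0162 and 0.156), so the numbers were not taken as pairs. The number of arrays limits the precision.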

Additional observations from a re-analysis of the deposited data

How the results depend on the processing

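The upstream Myh8 probe was the only myosin probe called under every alternative at probe level except slide as a fixed effect, which called 0 probes in all, 0 higher and 0 lower (log2 fold change −2.17, adjusted p = 0.0532). With 1 probe per gene the count of called myosin probes was 0, since the downstream probe then stands for Myh8. Over all probes, normexp background correction called 2088 (982 higher, 1106 lower) and the authors' normalized values 1592 (735 and 857), against 5208 (2555 and 2653). Leaving out 1 mouse at a time gave 4376 to 5544 probes (2063 to 2738 higher, 2313 to 2806 lower), and without WT mice 2 and 3 and AR113Q mouse 3, an alternative added after the data were seen, 5327, with the upstream Myh8 probe at −2.13. With the replicate number as a block, the numbers not being pairs, 2558 were higher and 2632 lower, 1 myosin probe was called, and Myh2 came to −0.36.

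With slide as a fixed effect the sign turned for Myh1 (−0.98), Myh2 (−2.65), Myh3 (−3.17 and −3.35), Myh6 (−1.93), Myh7b (−1.78) and the downstream Myh8 probe (−0.23). Array weights turned Myh2 (−0.20), and scaling to the 75th percentile turned the downstream Myh8 probe (−0.35) and Myh2 minus Myh1 (0.07). None of these passed its test before or after. Normexp background correction took the Myh3 log2 fold changes from 0.83 and 0.67 to 0.12 and 0.08, and that of Myh7b from 1.04 to 0.18. Leaving out 1 mouse at a time gave log2 fold changes of −0.38 to 0.68 for Myh1, −1.01 to 0.92 for Myh2, −0.07 to 1.88 and −0.02 to 1.65 for Myh3, −0.38 to 1.18 for Myh6, −2.57 to 1.11 for Myh7 and 0.40 to 1.62 for Myh7b. The genotype differences within an array then ran from 0.07 to 1.03 for Myh1 minus Myh4, −0.57 to 1.25 for Myh2 minus Myh4, −2.12 to 1.47 for Myh7 minus Myh4, −0.63 to 0.44 for Myh2 minus Myh1, −2.19 to 0.48 for Myh7 minus Myh1 and −1.56 to 0.22 for Myh7 minus Myh2. The causes were not tested.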

Other observations

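The fast myosin cluster also holds a probe for a noncoding RNA. Of the 8 probes not annotated to a member within 10 kb of the span of the member probes, which include the unnamed neighbour of the Myh7 probe, 3 were not well above background on any array, among them the probe of Mhrt, the RNA antisense to Myh7. The probe of 2310065F04Rik, on the minus strand at chr11:66925963-66926022 between Myh3 and Myh2, had log2 intensities of 9.94, 9.45, 10.26 and 9.97 in WT mice 1 to 4 and of 4.06, 4.72 and 4.51 in AR113Q mice 1 to 3. All AR113Q mice lay below all WT mice, and the probe was well above background in 4 of 4 WT and 2 of 3 AR113Q mice. The log2 fold change was −5.48 (SE 0.24, limma adjusted p = 1.6e-05), with AR113Q values near background, so its size is uncertain. It came to −2.91 with normexp background correction and to −2.30 in the authors' normalized values, and the adjusted p with slide as a fixed effect was 0.0508. This gene was singled out after its values were seen. The genes on either side, Myh3 and Myh2, were not called.

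Of the 10 fast fiber companions, 4 had 2 tested probes, and these were compared after their values were seen. For Myl1, the fast essential light chain, the brighter probe had a log2 fold change of −0.27 (limma adjusted p = 0.253) and the dimmer one −1.97 (limma adjusted p = 0.000485). For Pvalb, the calcium buffer of fast fibers, they were −0.13 (limma adjusted p = 0.534) and −1.12 (limma adjusted p = 0.00371). For Tnnt3, the fast troponin T, neither probe was called (0.00 and −0.10), and for Mylpf the brighter probe was the called one (−1.37 and −0.57). The dimmer Myl1 and Pvalb probes had mean log2 intensities of 15.77 and 15.48. The median range over the 7 arrays was 0.69 for the 154 tested probes with a mean log2 intensity of at least 16 and 0.81 for the 2232 with a mean from 12 to 16.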
